A study of Mus musculus with 11 samples.

Results

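Six2+ cells sorted from mouse kidneys at postnatal day 2 (P2) were compared with Six2+ cells sorted from the same reporter line at E16.5, an embryonic stage counted in days after mating. The comparison takes every library labelled Six2+, which is 2 libraries at P2 and 3 at E16.5, or 5 of the 11 libraries in the series. All 5 came from kidneys of CFW mice that carried 1 copy of Six2TGC, and no treatment is named. Six2TGC is a transgene in which Six2 regulatory sequence drives a green fluorescent protein joined to Cre recombinase. The sort therefore takes cells that hold the reporter protein, and how closely that follows Six2 transcript was not tested. The other 6 libraries serve here as side measurements. They are 3 of E16.5 Cited1+ cells from CFW kidneys with the Cited1tagRFP reporter and 3 of E16.5 Six2- cells from Six2TGC kidneys. The labels give neither the number of kidneys pooled nor whether libraries came from separate animals. Every p-value below thus refers to the scatter among these libraries, part or all of which may be technical.

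Six2 encodes a transcription factor that keeps cap mesenchyme cells, the progenitors of the nephron, undifferentiated around the tips of the ureteric bud. Wnt signals from the bud push some of these cells to aggregate, turn on Wnt4, Pax8 and Lhx1, and become epithelial vesicles that later form glomerulus and tubule. In the mouse the progenitor pool is used up in the first days after birth, and P2 falls in that closing window.

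Values are given as TPM, which is expression per unit of transcript length with every library brought to a total of 1000000 transcripts. Below, P2 and E16.5 with no further name mean the Six2+ libraries of that stage, in replicate order. The deposited values stood in 2 tables. P2 Six2+ and E16.5 Cited1+ libraries shared one and E16.5 Six2+ and Six2- libraries the other, so stage and table cannot be told apart between the Six2+ groups. Of the low values used in P2 replicate 1, 61.6% lay near whole-read steps. From such steps about 22900000 and 16500000 reads were inferred at P2, against 41900000, 38400000 and 31400000 at E16.5. Of 12973 genes tested, 1907 (14.7%) split all 11 libraries by table, 11.1% with the P2 table above and 3.64% with it below, and such genes are marked where they are named. Ribosomal protein genes made up 12.5% and 14% of the summed values at P2, against 19%, 23.5% and 16.4% at E16.5. Xist, made from the inactive X chromosome, stood at 0.316 and 486 TPM at P2, against 77.5, 60.5 and 177 TPM at E16.5. Y-linked Ddx3y stood at 71.7 and 0.36 TPM at P2, against 36.8, 20.3 and 27.7 TPM at E16.5. Each P2 library was thus high in 1 of these transcripts only, and each E16.5 library held both.

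At P2 the Six2+ cells held more transcript of genes for nephron commitment, Wnt response, Notch signalling and extracellular matrix. They held less of several progenitor regulators, of glycolytic enzymes and of respiratory chain subunits. Lhx1 and Wnt4 were higher at P2, and Six2, Igf2bp3 and Aldoa were lower. By limma's moderated test on log2(TPM + 1), adjusted by Benjamini-Hochberg over all genes tested and read at 0.05, 3424 of 12973 genes (26.4%) were higher at P2 and 1681 (13%) were lower, 39.4% together. A log2 fold change of at least 1 was reached by 2003 (15.4%) of the genes tested upward and 718 (5.53%) downward. Of the higher genes 1014 (7.82% of those tested) also split the libraries by table, as did 326 (2.51%) of the lower ones, which left 2410 (18.6%) higher and 1355 (10.4%) lower. Both P2 libraries lay above all 3 E16.5 libraries for 41.4% of genes and below them for 23.2%.

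The median log2 fold change of all genes was 0.178, and higher genes made up 67.1% of the calls. Scaled by the median of ratios in place of the common total, that median was -0.049, 2759 genes were higher and 3041 lower, and the higher share was 47.6%. Fold changes close to the median are therefore to be read against it. Single libraries also mattered, since 1713 genes were higher without P2 replicate 1 and 1871 without P2 replicate 2.

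**Figure D1:**
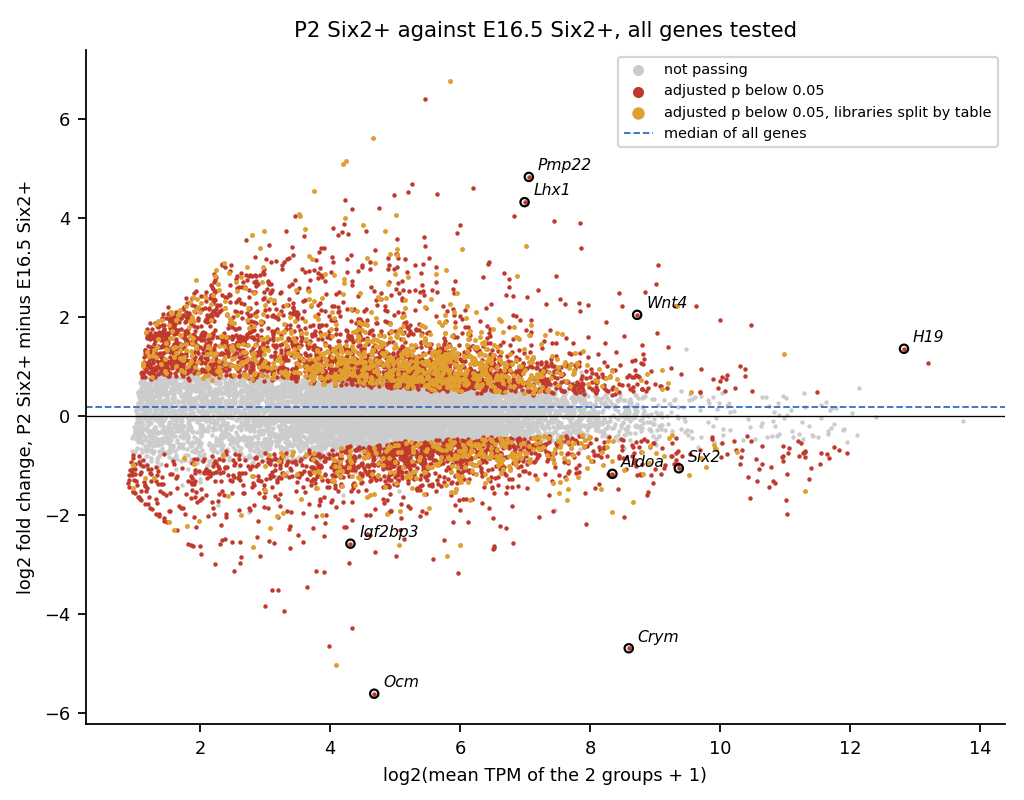
Log2 fold change (P2 Six2+ minus E16.5 Six2+, vertical axis) against the log2 of the mean TPM of both groups plus 1 (horizontal axis) for the 12973 genes tested, with genes past an adjusted p of 0.05 in red, or in orange where all libraries split by table. The cloud is centred at 0.178, Lhx1 and Pmp22 lie far above it and Crym and Ocm far below.

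Six2 itself, the gene behind the reporter, stood at 399.5 and 449 TPM at P2, against 841, 810.5 and 1018 TPM at E16.5. The groups did not overlap and both P2 libraries were lower (log2 fold change -1.06, SE 0.16, limma adjusted p = 0.00077). With all 11 libraries in the fit the limma adjusted p was 0.12, which ends that call. In Six2- cells the level was 7.96, 7.66 and 46.3 TPM, so both P2 libraries lay far above cells sorted without the reporter. Here and below, fewer cells of a type and less RNA per cell cannot be told apart in RNA from a sorted pool. Six3 neighbours Six2, at chr17:85613608-85626191 and chr17:85662736-85688254 of the GRCm38.p6 assembly as annotated by RefSeq. Six3 stood at 124 and 118 TPM at P2, against 141, 96.8 and 114 TPM at E16.5. In Cited1+ cells, which carry the other reporter, Six3 was at 0, 0 and 0.52 TPM, and the P2 and E16.5 Six2+ values overlapped.

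Lhx1, a homeobox gene of early nephron patterning at chr11:84517975-84525534, was the most clearly apart of the marker genes. It stood at 230.5 and 252 TPM at P2, against 12.3, 11.5 and 9.82 TPM at E16.5 (log2 fold change 4.31, SE 0.19, limma adjusted p = 3.4e-06). Every E16.5 library was low, with Cited1+ cells at 10.3, 9.37 and 10.96 TPM and Six2- cells at 11.1, 22.4 and 18.1 TPM. Wnt4, which drives the change of progenitors into epithelium and lies at chr4:137277635-137299501, stood at 672 and 682 TPM at P2, against 176, 144 and 174 TPM at E16.5 (log2 fold change 2.04, SE 0.15, limma adjusted p = 2.2e-05). Its E16.5 level was already above that of Cited1+ cells, and both P2 libraries lay above all 9 E16.5 libraries.

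The other marker genes were lower at P2. Igf2bp3, an RNA-binding protein gene of fetal growth at chr6:49085218-49215469, stood at 5.37 and 3.84 TPM at P2, against 42.1, 24.04 and 33.2 TPM at E16.5 (log2 fold change -2.58, SE 0.28, limma adjusted p = 0.00015). Aldoa, a glycolytic aldolase gene at chr7:126795234-126800994, stood at 202 and 193 TPM at P2, against 391.6, 492 and 464 TPM at E16.5 (log2 fold change -1.17, SE 0.15, limma adjusted p = 0.00041). For both genes the P2 libraries lay below all 9 E16.5 libraries, Cited1+ cells of the same table included.

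**Figure D2:**
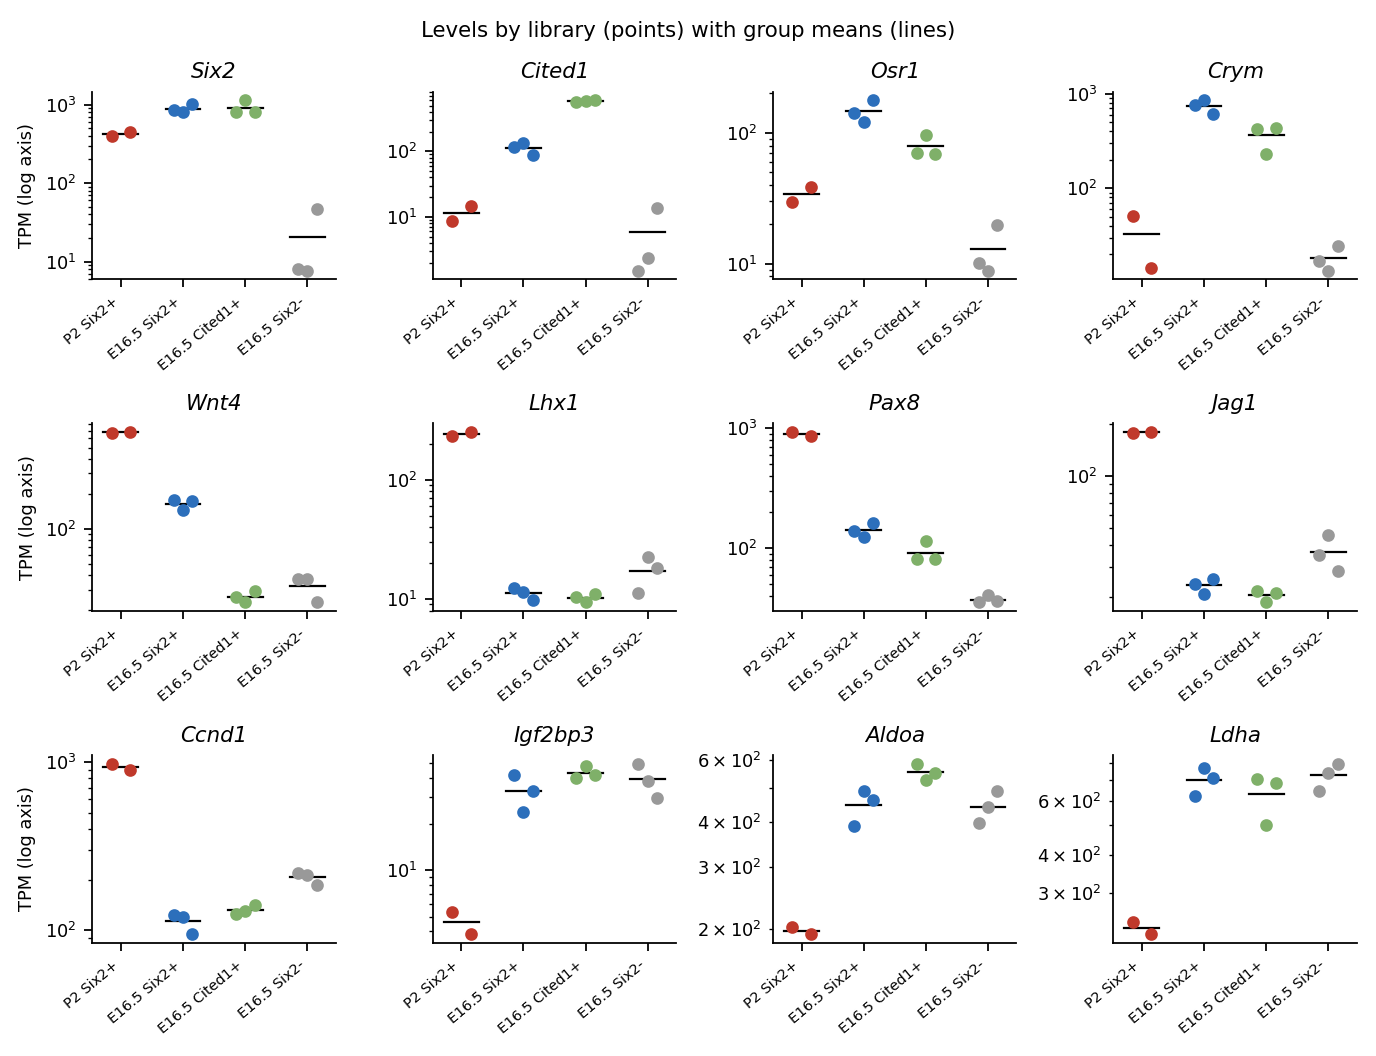
TPM on a log axis for 12 genes, with a point for each library and a line at the group mean, for P2 Six2+ (n = 2), E16.5 Six2+ (n = 3), E16.5 Cited1+ (n = 3) and E16.5 Six2- (n = 3) libraries. The P2 points lie above all 9 E16.5 points for Wnt4, Lhx1, Pax8, Jag1 and Ccnd1, and below all of them for Igf2bp3, Aldoa and Ldha.

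The cap mesenchyme genes divided. Of 34 genes, 33 passed the filter on low values, and 12 were lower and 9 higher at P2, beside 13% and 26.4% of all genes. The share of higher members was thus about that of all genes. The median log2 fold change was 0.0, beside 0.178 for all genes. The lower members were led by Crym, a thyroid hormone binding protein gene at chr7:120186380-120201989. Crym stood at 50.5 and 14.5 TPM at P2, against 751, 849 and 612 TPM at E16.5 (log2 fold change -4.70, SE 0.39). The P2 libraries differed from each other, and both were far below every E16.5 Six2+ library. Cited1, a transcriptional cofactor of the youngest progenitors, stood at 8.79 and 14.4 TPM at P2, against 115, 133 and 87.2 TPM at E16.5 (log2 fold change -3.18, SE 0.25). In Six2- cells Cited1 stood at 1.51, 2.32 and 13.65 TPM. Only replicate 3 of these, which also held the most Six2, lay within the P2 range. Robo2, an axon guidance receptor that limits where Gdnf is made, stood at 22.9 and 24.9 TPM at P2, against 188, 102 and 184 TPM at E16.5 (log2 fold change -2.62, SE 0.26). Osr1, a zinc finger regulator of the renal lineage, stood at 29.4 and 38.3 TPM at P2, against 141, 121 and 177 TPM at E16.5 (log2 fold change -2.07, SE 0.21). The homeobox genes Meox1 and Meox2 were lower, with log2 fold changes of -1.93 (SE 0.20) and -2.54 (SE 0.42). Rspo3, which amplifies Wnt signals, was lower too (log2 fold change -2.07, SE 0.29).

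Other regulators of the progenitors did not follow Six2. Eya1, a cofactor of Six2, stood at 291 and 272 TPM at P2, against 236, 163 and 247 TPM at E16.5 (log2 fold change 0.41, SE 0.19, limma adjusted p = 0.12). The groups did not overlap, but Eya1 missed the threshold and split all libraries by table. Gdnf, the signal that makes the ureteric bud branch, stood at 61.5 and 42.99 TPM at P2, against 52.6, 35.4 and 70.5 TPM at E16.5 (log2 fold change 0.02, SE 0.28). The homeobox gene Uncx stood at 396 and 426 TPM at P2, against 419, 353 and 470.3 TPM at E16.5 (log2 fold change 0.00, SE 0.16). Values of the groups overlapped for both genes. Sall1, a zinc finger gene needed for kidney formation, was higher at 595 and 597 TPM at P2, against 339, 202 and 355 TPM at E16.5 (log2 fold change 1.04, SE 0.23). Sall1 lost its call without P2 replicate 1 (limma adjusted p = 0.056) and without P2 replicate 2 (limma adjusted p = 0.055). Wt1, which acts in progenitors and again in podocytes, was higher at 790.5 and 788 TPM at P2, against 275, 192 and 291 TPM at E16.5 (log2 fold change 1.66, SE 0.19). Pax2 (log2 fold change 2.22, SE 0.28) and the membrane protein gene Tmem100 (log2 fold change 2.94, SE 0.21) were higher too, and both split all libraries by table. Without P2 replicate 2 the higher members numbered 5.

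Genes of early nephron commitment rose nearly throughout. Of 31 genes, 29 passed the filter, and 27 were higher and none lower at P2, beside 26.4% and 13% of all genes. The median log2 fold change was 2.49. For 20 of the 27 the P2 libraries lay above all 9 E16.5 libraries, which held together with the call for 12.8% of all genes tested. The higher members numbered 23 to 27 when single libraries were left out and 25 with the median of ratios. For this list and each later one with none in a direction, ribosomal protein genes aside, none passed at an unadjusted limma p of 0.05 either.

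Pax8, a paired-box factor of renal epithelium, stood at 929 and 859 TPM at P2, against 139, 123.1 and 162 TPM at E16.5 (log2 fold change 2.66, SE 0.16). Jag1, a Notch ligand of the renal vesicle, stood at 178 and 180 TPM at P2, against 24.01, 21.1 and 25.4 TPM at E16.5 (log2 fold change 2.88, SE 0.17). Neither gene overlapped between the groups, and the P2 libraries were alike. Emx2, a homeobox gene of ureteric bud and early nephron, stood at 69.1 and 69.3 TPM at P2, against 2.1, 3.04 and 1.26 TPM at E16.5 (log2 fold change 4.53, SE 0.29). Npy, a neuropeptide gene on the list, stood at 319 and 334 TPM at P2, against 19.9, 26.8 and 15.9 TPM at E16.5 (log2 fold change 3.94, SE 0.22). Both were above all E16.5 libraries. The growth factor gene Bmp2 stood at 75.7 and 91.6 TPM at P2, against 13.9, 10.1 and 19.4 TPM at E16.5 (log2 fold change 2.49, SE 0.27). Sfrp2, a secreted Wnt modulator, stood at 607 and 565 TPM at P2, against 104, 102 and 109 TPM at E16.5 (log2 fold change 2.47, SE 0.14).

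Patterning genes differed in strength. Osr2 (log2 fold change 2.96, SE 0.35), Papss2 (log2 fold change 3.73, SE 0.27), Irx3 (log2 fold change 3.13, SE 0.26) and Cdh6, a cadherin of nascent proximal tubule (log2 fold change 2.80, SE 0.23), were higher. The homeobox gene Irx1 stood at 7.32 and 1.8 TPM at P2, against 0.215, 0.58 and 0.0885 TPM at E16.5 (log2 fold change 1.92, SE 0.42), so P2 replicate 1 was the higher of the P2 libraries. Pou3f3 (log2 fold change 4.02, SE 0.28) and the growth factor gene Fgf8 (log2 fold change 2.16, SE 0.27) were higher and split all libraries by table. The members that did not pass were Tmem132a (log2 fold change -0.12, SE 0.25) and the Notch target Hes1 (log2 fold change 0.19, SE 0.21). Proximal tubule markers moved with this list, their summed level being 92.5 to 147.6 TPM at P2 against 11.25 to 16.54 TPM at E16.5, and their part in it was not tested.

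**Figure D3:**
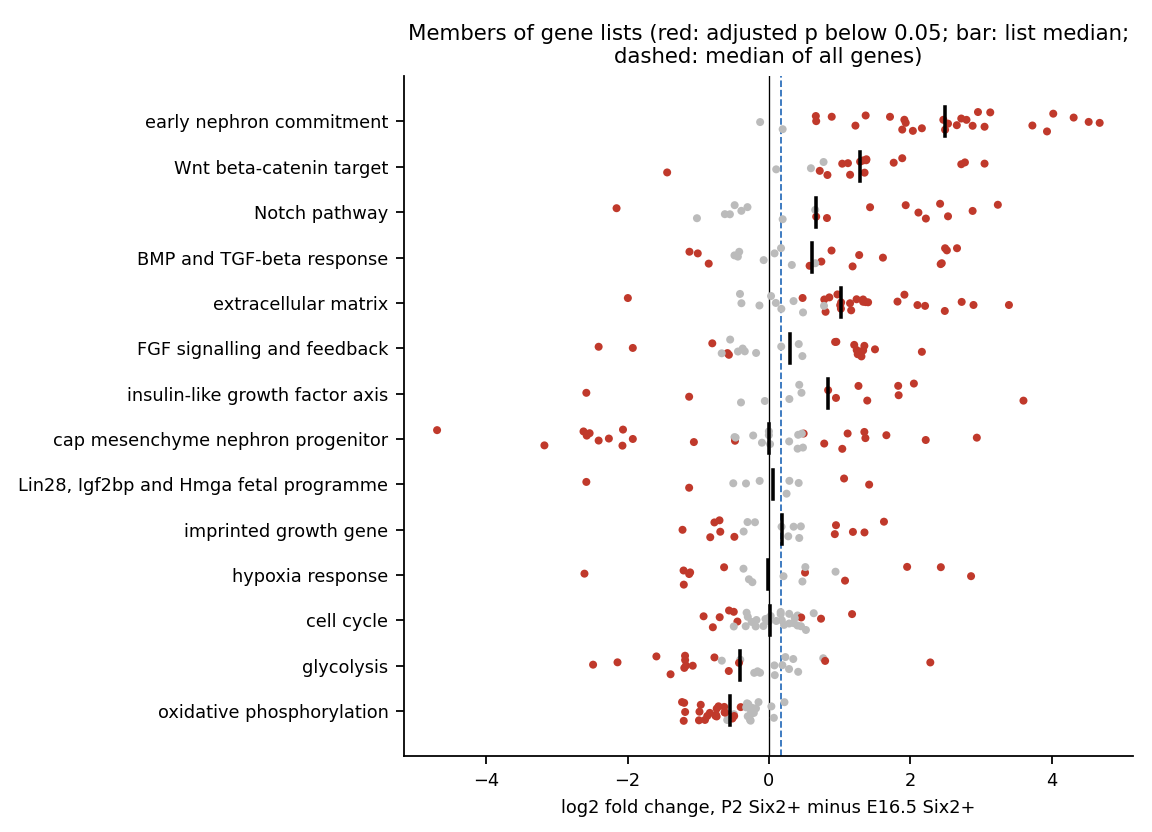
Log2 fold change (P2 Six2+ minus E16.5 Six2+) of each tested member of 14 gene lists, with members past an adjusted p of 0.05 in red, a black bar at the list median, a solid line at 0 and a dashed line at the median of all genes, 0.178. The median of early nephron commitment genes lies at 2.49 and that of oxidative phosphorylation genes at -0.55.

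Among Wnt ligands Wnt4 was the abundant member, and 10 of 15 fell below the filter. Wnt11, a ligand of ureteric tips and the other member called, stood at 0.762 and 2.74 TPM at P2, against 6.29, 6.02 and 8.71 TPM at E16.5 (log2 fold change -1.63, SE 0.35). It split all libraries by table and lost its call without P2 replicate 1 (limma adjusted p = 0.063). Targets of canonical Wnt signalling were mostly higher, 15 of 19, with 1 lower, beside 26.4% and 13% of all genes. Their median log2 fold change was 1.29. Between 10 and 14 were higher when single libraries were left out. Ccnd1, the cyclin that starts the cell cycle, stood at 979.6 and 897 TPM at P2, against 124, 120 and 94.9 TPM at E16.5 (log2 fold change 3.05, SE 0.16). Lef1, a transcription factor that carries the Wnt signal to DNA, stood at 63.3 and 54.1 TPM at P2, against 8.7, 6.84 and 8.64 TPM at E16.5 (log2 fold change 2.72, SE 0.22). For both genes the P2 libraries lay above all 9 E16.5 libraries. Lgr6, a receptor for R-spondins, stood at 22.9 and 24.2 TPM at P2, against 2.78, 1.58 and 3.7 TPM at E16.5 (log2 fold change 2.77, SE 0.30). The secreted antagonist Dkk1 stood at 7.24 and 4.31 TPM at P2, against 0.964, 0.855 and 0.571 TPM at E16.5 (log2 fold change 1.89, SE 0.29). Apcdd1 (log2 fold change 1.77, SE 0.20), Nkd1 (log2 fold change 1.38, SE 0.18) and Notum (log2 fold change 1.12, SE 0.21), which restrain Wnt signalling, were higher as well, Notum not with all 11 libraries in the fit (limma adjusted p = 0.075).

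The feedback gene Axin2 did not pass. It stood at 61.1 and 51.4 TPM at P2, against 61.7, 41.5 and 55.4 TPM at E16.5 (log2 fold change 0.10, SE 0.21, limma adjusted p = 0.72), with overlapping values. Myc, a growth regulator and Wnt target, was the lower member at 34.2 and 63.01 TPM at P2, against 128, 113 and 145 TPM at E16.5 (log2 fold change -1.44, SE 0.24, limma adjusted p = 0.0017). P2 replicate 1 held the least Myc of the 5 libraries, and the groups did not overlap.

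Notch pathway genes were higher in 10 and lower in 1 of 19 tested cases, out of 22, beside 26.4% and 13% of all genes. Their median log2 fold change was 0.67. The lower ones numbered 5 with the median of ratios or with the trend over transcript length removed, 3 without E16.5 replicate 2, 2 without E16.5 replicate 3 and 2 without P2 replicate 2. The ligand gene Dll1 stood at 26.7 and 22.1 TPM at P2, against 5.75, 3.71 and 8.09 TPM at E16.5 (log2 fold change 1.94, SE 0.31). Notch2, the main receptor of the nephron, stood at 172 and 217 TPM at P2, against 81.5, 41.9 and 105 TPM at E16.5 (log2 fold change 1.43, SE 0.32) and lost its call without P2 replicate 2 (limma adjusted p = 0.076). Notch1 (log2 fold change 2.22, SE 0.24) was higher but split all libraries by table. Of its targets, Hey1 stood at 224 and 273 TPM at P2, against 41.5, 49.9 and 35.4 TPM at E16.5 (log2 fold change 2.53, SE 0.19). Hey2 stood at 31.4 and 38.97 TPM at P2, against 2.9, 2.85 and 2.67 TPM at E16.5 (log2 fold change 3.24, SE 0.24). The feedback gene Nrarp stood at 35.9 and 34.8 TPM at P2, against 4.97, 7.91 and 4.86 TPM at E16.5 (log2 fold change 2.42, SE 0.26). The higher members thus included a ligand, receptors and targets, while Hes1 did not pass. Hes6, which counters Hes1, was the lower member at 24.04 and 24.4 TPM at P2, against 99.8, 108 and 128 TPM at E16.5 (log2 fold change -2.16, SE 0.18).

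The BMP and TGF-beta list held 11 higher and 3 lower members of 22, beside 26.4% and 13% of all genes. Its median log2 fold change was 0.62. Without P2 replicate 2, 7 were higher, and with the median of ratios 9 were higher and 5 lower. Bmp4 stood at 79.95 and 78.6 TPM at P2, against 27.4, 30.99 and 39.05 TPM at E16.5 (log2 fold change 1.28, SE 0.20). Id4, a target of BMP signals, stood at 168 and 181 TPM at P2, against 28.7, 27.6 and 38.2 TPM at E16.5 (log2 fold change 2.45, SE 0.19). The inhibitory Smad6 (log2 fold change 1.61, SE 0.20), the antagonist Nog (log2 fold change 2.52, SE 0.27) and Smad9 (log2 fold change 2.66, SE 0.23) were higher but split all libraries by table. Bmp7, the main BMP of the cap mesenchyme, stood at 137 and 111 TPM at P2, against 199, 138 and 190.5 TPM at E16.5 (log2 fold change -0.49, SE 0.19, limma adjusted p = 0.071). Bmp7 values did not overlap between the groups, and it missed the threshold.

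FGF genes divided. Of 25 genes 24 passed the filter, and 10 were higher and 5 lower, beside 26.4% and 13% of all genes. The median log2 fold change was 0.30. Scaled by the median of ratios 9 were higher and 10 lower. Without P2 replicate 1 the numbers were 6 and 3, without P2 replicate 2 they were 7 and 2, and without E16.5 replicate 3 they were 12 and 3. Fgf20, which keeps progenitors undifferentiated, stood at 6.76 and 6.66 TPM at P2, against 35.8, 40.1 and 44.5 TPM at E16.5 (log2 fold change -2.41, SE 0.21), and Cited1+ cells of the P2 table held 10.9, 6.32 and 12.4 TPM. The pathway's feedback genes went both ways. Dusp6 (log2 fold change -0.80, SE 0.17) was lower, while Spry1 (log2 fold change 1.26, SE 0.27) and Il17rd (log2 fold change 1.31, SE 0.26) were higher. Without P2 replicate 2 the calls of Dusp6 (limma adjusted p = 0.061) and Spry1 (limma adjusted p = 0.068) ended. Fgfr1, a main receptor, stood at 429 and 421 TPM at P2, against 385, 284 and 489 TPM at E16.5 (log2 fold change 0.17, SE 0.21), with overlapping values.

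The fetal growth genes held 2 higher and 2 lower of 10 tested, out of 12, beside 26.4% and 13% of all genes. Their median log2 fold change was 0.06. The higher ones numbered 1 without P2 replicate 1 and 1 without P2 replicate 2, and the lower ones 4 with the length trend removed. Beside Igf2bp3, its relative Igf2bp1 was lower at 20.96 and 21.5 TPM at P2, against 47.8, 36.7 and 61.7 TPM at E16.5 (log2 fold change -1.13, SE 0.23). Igf2bp2, the other member of that family, stood at 174 and 151 TPM at P2, against 146, 111 and 142 TPM at E16.5 (log2 fold change 0.29, SE 0.17, limma adjusted p = 0.21). Whether members of the family differ from each other was not tested. Hmga2, a chromatin protein gene of fetal tissue, stood at 119 and 114 TPM at P2, against 161, 94.1 and 138 TPM at E16.5 (log2 fold change -0.13, SE 0.22). Lin28b, a blocker of let-7 processing, was listed at 0 in both P2 libraries and reached 0.0774 TPM at E16.5, below the filter. Mycn, a growth regulator related to Myc, stood at 97.7 and 222 TPM at P2, against 71.3, 53.1 and 42.6 TPM at E16.5 (log2 fold change 1.42, SE 0.32). Mycn lost its call without P2 replicate 2, the higher P2 library (limma adjusted p = 0.093). Mycl (log2 fold change 1.06, SE 0.25) lost its call without P2 replicate 1 (limma adjusted p = 0.072).

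In the insulin-like growth factor axis 8 of 15 tested genes were higher and 2 lower, out of 18, beside 26.4% and 13% of all genes. The median log2 fold change was 0.84. The lower ones were Igf2bp3 and Igf2bp1. The ligand gene Igf2 stood at 1841 and 1677 TPM at P2, against 1019, 809 and 913 TPM at E16.5 (log2 fold change 0.95, SE 0.15). Its imprinted neighbour H19, a non-coding RNA made from the maternal allele, stood at 10630 and 10220 TPM at P2, against 4300, 4096 and 3867 TPM at E16.5 (log2 fold change 1.35, SE 0.15). H19 was the most abundant transcript of all lists in both groups. Binding proteins, which hold the ligand outside cells, were higher. Igfbp5 stood at 2044 and 2328 TPM at P2, against 666, 386 and 897 TPM at E16.5 (log2 fold change 1.83, SE 0.29). Igfbp7 stood at 101.4 and 57.6 TPM at P2, against 3.24, 9.26 and 4.97 TPM at E16.5 (log2 fold change 3.60, SE 0.38). Cited1+ cells held 55.5, 67.8 and 54.7 TPM of Igfbp7, near the lower P2 library. The receptor gene Igf1r (log2 fold change 1.39, SE 0.31) was higher, split all libraries by table and lost its call without P2 replicate 2 (limma adjusted p = 0.063).

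Imprinted growth genes were higher in 5 and lower in 6 of 19 tested cases, out of 23, with a median log2 fold change of 0.18, and 1 was lower without P2 replicate 1 and 1 without P2 replicate 2. Mest, whose paternal copy is active, stood at 982 and 982 TPM at P2, against 1799, 1414 and 1597 TPM at E16.5 (log2 fold change -0.70, SE 0.15). Grb10, which dampens insulin signalling, stood at 636 and 624 TPM at P2, against 1128, 845 and 1101 TPM at E16.5 (log2 fold change -0.69, SE 0.16). Without P2 replicate 1 the limma adjusted p was 0.064 for Mest and 0.073 for Grb10, and without P2 replicate 2 it was 0.060 and 0.078. Peg10, made from the paternal copy, stood at 4.61 and 4.65 TPM at P2, against 1.05, 0.645 and 0.794 TPM at E16.5 (log2 fold change 1.63, SE 0.26). The list thus held abundant members that moved in opposite directions. Over all genes 26.4% were higher and 13% lower.

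Transcripts for glycolytic enzymes were lower at P2 at many steps of the pathway. All 27 genes passed the filter, and 12 were lower and 2 higher, beside 13% and 26.4% of all genes, with a median log2 fold change of -0.41. For 10 of the 12 the P2 libraries lay below all 9 E16.5 libraries, which held together with the call for 7.35% of all genes tested. The lower members numbered 8 to 12 when single libraries were left out, 14 with the median of ratios and 15 with the length trend removed, and the higher ones 1 without P2 replicate 1. Summed over the list, the level was 6743 to 7452 TPM at P2 against 8034 to 10080 TPM at E16.5.

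The 250 bases before the start sites of the listed glycolysis genes were read for ACGTG. These letters are the core of the hypoxia response element bound by Hif factors. Both strands were read, so a match appears as ACGTG or CACGT, and the E-box CACGTG holds both. The stretches shown are those of lower genes from uptake to lactate export, in gene orientation, 5′ to 3′, with matches in capitals, from RefSeq promoters of GRCm38.p6. They lie at chr7:126799356-126799400 on the minus strand for Aldoa and, on the plus strand, at chr7:46845639-46845794 for Ldha, chrX:106186930-106186993 for Pgk1, chr11:120949020-120949066 for Slc16a3 and chr4:119108689-119108733 for Slc2a1.
Aldoa: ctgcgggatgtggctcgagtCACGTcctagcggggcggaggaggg
Ldha: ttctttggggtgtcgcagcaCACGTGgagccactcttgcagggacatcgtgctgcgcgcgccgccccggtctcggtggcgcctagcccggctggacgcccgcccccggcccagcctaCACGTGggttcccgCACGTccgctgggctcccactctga
Pgk1: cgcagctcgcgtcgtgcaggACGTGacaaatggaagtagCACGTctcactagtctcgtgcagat
Slc16a3: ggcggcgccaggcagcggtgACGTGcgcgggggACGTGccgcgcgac
Slc2a1: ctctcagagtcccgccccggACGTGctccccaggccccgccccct

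The letters ACGTG stood in the window of 7 of the 12 lower glycolysis genes and of 12 of the 26 list genes with a promoter entry, against 18.5% of 27025 genes. A gene counted if any of its promoters matched. List genes that were not lower held the letters too. These were Pfkfb2, Pfkfb3, Hk2 and Pfkm, which did not pass, and Slc16a1, which was higher. The list had 43 promoters for its 26 genes, against 32851 for the 27025, so its genes had more windows each. The 27025 were all genes with a promoter entry, tested here or not. Ldha held 3 separate matches, the outermost 145 and 34 bases before the start, and Pgk1 and Slc16a3 held 2 each. A match describes the sequence and does not show binding. Among the higher Wnt targets 0 of 9 held ATCAAAG, the Tcf/Lef core, which 3.72% of genes held. Among the higher Notch genes 1 of 7 held GTGGGAA, the Rbpj core, which 6.18% of genes held. Both were read on both strands of the same window, and no motif searched contains another.

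Along the pathway, the glucose transporter gene Slc2a1 stood at 54.5 and 53.7 TPM at P2, against 71.5, 70.5 and 104 TPM at E16.5 (log2 fold change -0.57, SE 0.20). Hexokinase 2, Hk2, stood at 25.03 and 26.1 TPM at P2, against 34.97, 26.1 and 43.5 TPM at E16.5 (log2 fold change -0.41, SE 0.24) and did not pass. Pfkl, which commits sugar to the pathway, stood at 51.04 and 52.3 TPM at P2, against 120, 140.5 and 153 TPM at E16.5 (log2 fold change -1.39, SE 0.17). Its muscle-type relative Pfkm did not pass (log2 fold change -0.16, SE 0.18). In the steps after Aldoa, Tpi1 (log2 fold change -1.19, SE 0.15), Pgk1 (log2 fold change -1.19, SE 0.14), Pgam1 (log2 fold change -1.08, SE 0.14), Eno1 (log2 fold change -0.77, SE 0.22) and Eno3 (log2 fold change -2.14, SE 0.24) were lower. Gapdh, which belongs to the same stretch, stood at 3583 and 3278 TPM at P2, against 3152, 3566 and 1981 TPM at E16.5 (log2 fold change 0.28, SE 0.23), with overlapping values. Pkm, which makes pyruvate, was lower at 881 and 728 TPM at P2, against 1012, 1093 and 1123 TPM at E16.5 (log2 fold change -0.42, SE 0.15). The calls of Slc2a1 and Pkm lay close to the threshold and ended without most single libraries, with a limma adjusted p of 0.20 and 0.34 without P2 replicate 2 and of 0.19 and 0.091 without P2 replicate 1. Without E16.5 replicate 1 it was 0.063 for Slc2a1 and 0.087 for Pkm, and without E16.5 replicate 3 it was 0.080 and 0.061. Without E16.5 replicate 2 it was 0.061 for Pkm. Eno1 lost its call without P2 replicate 1 (limma adjusted p = 0.10), P2 replicate 2 (limma adjusted p = 0.13) and E16.5 replicate 1 (limma adjusted p = 0.067).

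Lactate genes were among the largest falls of the list. Ldha, which turns pyruvate into lactate, stood at 241 and 221 TPM at P2, against 623, 767 and 712 TPM at E16.5 (log2 fold change -1.59, SE 0.15). The lactate exporter gene Slc16a3 stood at 10.8 and 7.99 TPM at P2, against 52.7, 44.6 and 78.2 TPM at E16.5 (log2 fold change -2.49, SE 0.27). Both genes carry the promoter letters printed above, and at P2 both lay below all 9 E16.5 libraries. Ldhb stood at 385 and 330.4 TPM at P2, against 298, 344 and 298 TPM at E16.5 (log2 fold change 0.19, SE 0.15) and did not pass. Slc16a1, the other lactate carrier, was higher at 186 and 179.8 TPM at P2, against 117, 94.2 and 105 TPM at E16.5 (log2 fold change 0.80, SE 0.16). Slc16a1 also held the letters ACGTG in its window. It split all libraries by table, as did the other higher member, Pgam2 (log2 fold change 2.28, SE 0.47).

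Other genes of the hypoxia list went both ways, 5 higher and 6 lower of 18 tested, out of 20, with a median log2 fold change of -0.01 and 3 lower without P2 replicate 2. Over all genes 26.4% were higher and 13% lower. Pdk1, which keeps pyruvate out of mitochondria, stood at 13.9 and 14.3 TPM at P2, against 29.9, 26.4 and 40.5 TPM at E16.5 (log2 fold change -1.12, SE 0.23). The adenylate kinase gene Ak4 stood at 4.88 and 3.67 TPM at P2, against 11.3, 11.4 and 10.6 TPM at E16.5 (log2 fold change -1.21, SE 0.25). Pdk1 lost its call without P2 replicate 1 (limma adjusted p = 0.052) and Ak4 without P2 replicate 2 (limma adjusted p = 0.055). Vegfa, a vascular growth factor and Hif target, stood at 177 and 171 TPM at P2, against 92.2, 105 and 184 TPM at E16.5 (log2 fold change 0.52, SE 0.26), with overlapping values. Both genes for Hif subunits were higher. Epas1 was higher at 8.84 and 7.66 TPM at P2, against 0.948, 0.525 and 0.682 TPM at E16.5 (log2 fold change 2.43, SE 0.26), and Hif1a (log2 fold change 1.08, SE 0.17) split all libraries by table.

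In the Tsc and mTOR list, a growth pathway that senses nutrients, 9 of 28 tested genes were higher and 5 lower, out of 29, with a median log2 fold change of 0.06, against 26.4% and 13% over all genes. The balance turned with the length trend removed, at 5 higher and 11 lower, and was even at 8 and 8 with the median of ratios. The numbers were 4 and 2 without P2 replicate 1 and 4 and 3 without P2 replicate 2. Tsc1 stood at 20.03 and 21.7 TPM at P2, against 20.6, 15.6 and 30.1 TPM at E16.5 (log2 fold change -0.03, SE 0.28). Mtor stood at 32.7 and 26.1 TPM at P2, against 30.6, 20.3 and 36.3 TPM at E16.5 (log2 fold change 0.05, SE 0.26). The groups overlapped for both of these core genes. Ddit4, a stress-induced inhibitor of the pathway, was lower at 9.2 and 7.26 TPM at P2, against 42.8, 55.99 and 69.8 TPM at E16.5 (log2 fold change -2.61, SE 0.25) but split all libraries by table.

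Nuclear genes for the respiratory chain were lower in 21 and higher in none of 38 cases, beside 13% and 26.4% of all genes. Their median log2 fold change was -0.55. For 14 of the 21 the P2 libraries lay below all 9 E16.5 libraries, which held together with the call for 7.35% of all genes tested. The lower members numbered 13 without P2 replicate 1, 13 without P2 replicate 2 and 28 with the median of ratios. Uqcrfs1, the iron-sulphur protein gene of complex III, stood at 114 and 106 TPM at P2, against 249.9, 258 and 252 TPM at E16.5 (log2 fold change -1.20, SE 0.14). Cox4i1, of cytochrome oxidase, stood at 386 and 489 TPM at P2, against 785, 927 and 876 TPM at E16.5 (log2 fold change -0.98, SE 0.16). Ndufa9, of complex I, stood at 72.1 and 77.4 TPM at P2, against 151, 141 and 149 TPM at E16.5 (log2 fold change -0.97, SE 0.15). None of these overlapped between the groups. Atp5a1, of ATP synthase, stood at 983 and 931 TPM at P2, against 1130, 1160 and 1146 TPM at E16.5 (log2 fold change -0.26, SE 0.14, limma adjusted p = 0.15) and did not pass. Transcripts of the list are short, with a median length of 1427 bases against 3386 for all tested genes, and with the length trend removed 20 were lower and 1 higher. Ribosomal protein genes were lower in 46 of 82 tested cases and higher in none by limma (2 at an unadjusted p of 0.05), with a median log2 fold change of -0.64.

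Few proliferation genes passed. Of 36 cell cycle genes 3 were higher and 6 lower, with a median log2 fold change of 0.01, against 26.4% and 13% over all genes. With the median of ratios 1 was higher and 11 were lower. Without P2 replicate 1 the numbers were 0 and 2, without P2 replicate 2 they were 1 and 2, and without E16.5 replicate 1 they were 2 and 2. Mki67, a protein gene of dividing cells, stood at 361 and 320 TPM at P2, against 172, 95.8 and 203 TPM at E16.5 (log2 fold change 1.18, SE 0.27) and lost its call without P2 replicate 1 (limma adjusted p = 0.079). Top2a stood at 444 and 350.1 TPM at P2, against 315, 268 and 339 TPM at E16.5 (log2 fold change 0.37, SE 0.17) and did not pass. Cdc20, an activator of the anaphase-promoting complex, was lower at 110.2 and 84.4 TPM at P2, against 163, 192 and 199 TPM at E16.5 (log2 fold change -0.92, SE 0.17). Inhibitors and p53 targets were higher in 7 and lower in 5 of 18 tested cases, out of 20, with a median log2 fold change of 0.08. Without P2 replicate 1 these numbers were 3 and 2, without P2 replicate 2 they were 4 and 4, and with the median of ratios they were 6 and 7. Cdkn1c, an imprinted brake on the cell cycle, stood at 145 and 146 TPM at P2, against 304, 237 and 215 TPM at E16.5 (log2 fold change -0.77, SE 0.17). Its relative Cdkn1b stood at 58.6 and 50.97 TPM at P2, against 28.7, 20.5 and 29.3 TPM at E16.5 (log2 fold change 1.05, SE 0.22). These brakes moved in opposite directions. The limma adjusted p without P2 replicate 1 was 0.062 for Cdkn1c and 0.068 for Cdkn1b, and without P2 replicate 2 it was 0.058 for Cdkn1c.

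Polycomb and DNA methylation genes were higher in 7 and lower in 3 of 26 cases, with a median log2 fold change of 0.23, about the shares over all genes of 26.4% and 13%. The higher ones numbered 3 without P2 replicate 1 and 3 without P2 replicate 2. The balance turned with the median of ratios, at 4 higher and 5 lower, and with the length trend removed, at 5 higher and 7 lower. Phf19, a partner of the Polycomb complex that methylates histone H3, stood at 3.64 and 3.17 TPM at P2, against 32.5, 31.3 and 37.6 TPM at E16.5 (log2 fold change -2.98, SE 0.23). The catalytic subunit gene Ezh2 stood at 239.5 and 186 TPM at P2, against 174, 159.6 and 183 TPM at E16.5 (log2 fold change 0.29, SE 0.16) and did not pass.

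Extracellular matrix genes were higher at P2, basement membrane genes among them. Of 34 genes 33 passed the filter, and 23 were higher and 1 was lower, beside 26.4% and 13% of all genes. The median log2 fold change was 1.02. Without P2 replicate 1 the higher ones numbered 12, without P2 replicate 2 also 12, and the lower ones 2 without E16.5 replicate 2. Lama4, a laminin chain gene, stood at 427 and 419 TPM at P2, against 39.6, 34.6 and 44.1 TPM at E16.5 (log2 fold change 3.40, SE 0.16). Lamc1, the common gamma chain, stood at 808 and 749.5 TPM at P2, against 151, 97.1 and 178 TPM at E16.5 (log2 fold change 2.49, SE 0.23). Nid1, which links laminin to collagen, stood at 104 and 105 TPM at P2, against 16.99, 13.6 and 14.4 TPM at E16.5 (log2 fold change 2.73, SE 0.19). For each of these genes the P2 libraries lay above every E16.5 Six2+ library. Lama5, the laminin chain of mature kidney basement membrane, stood at 31.8 and 27.2 TPM at P2, against 15.7, 10.7 and 27.7 TPM at E16.5 (log2 fold change 0.78, SE 0.34, limma adjusted p = 0.092) and did not pass. The lower member was Frem1, of the matrix between epithelium and mesenchyme, at 7.67 and 9.45 TPM at P2, against 41, 24.6 and 49.9 TPM at E16.5 (log2 fold change -2.00, SE 0.30). Transcripts of the list are long, with a median of 6450 bases, and with the length trend removed 17 were higher and 5 lower. Interstitial stroma markers summed to 600.9 to 692 TPM at P2 and 443 to 564 TPM at E16.5, against 9253 to 13820 TPM in Six2- libraries, and their part in it was not tested.

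Podocyte genes were higher in 15 and lower in 2 of 19 tested cases, out of 20, with a median log2 fold change of 1.65, and the lower ones numbered 1 without P2 replicate 1 and 1 without P2 replicate 2. They summed to 1976 to 2000 TPM at P2 against 801 to 1121 TPM at E16.5. Podxl, a surface protein gene of podocytes, stood at 59.9 and 40.8 TPM at P2, against 1.78, 1.5 and 2.06 TPM at E16.5 (log2 fold change 4.19, SE 0.27). Podxl was clear of every E16.5 Six2+ library. For this and each marker list below, the shares over all genes were 26.4% higher and 13% lower.

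Proximal tubule genes were higher in 13 and lower in none of 15 tested cases, out of 26, with a median log2 fold change of 1.66, and higher in 8 without P2 replicate 1. Kap, made in proximal tubule, stood at 13.97 and 8.24 TPM at P2 and was listed at 0 in all E16.5 Six2+ libraries. The tubule regulator Hnf4a stood at 2.72 and 2.39 TPM at P2, against 0.122, 0.257 and 0.0784 TPM at E16.5 (log2 fold change 1.63, SE 0.26). Cited1+ libraries held more of this list than P2 libraries, at 184 to 216.5 TPM summed. Loop and distal tubule genes were higher in 14 and lower in 1 of 17 tested cases, out of 21, with a median log2 fold change of 1.93, and 8 of the 17 split all libraries by table. The higher ones numbered 5 without P2 replicate 1 and 9 without E16.5 replicate 1, and none was lower without P2 replicate 1 or without P2 replicate 2. Slc12a1, the salt carrier of the thick ascending limb, stood at 19.9 and 1.49 TPM at P2, against 0.562, 1.69 and 0 TPM at E16.5, high in P2 replicate 1 only.

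Markers of ureteric bud and collecting duct were higher in 14 and lower in 1 of 17 tested cases, out of 25, with a median log2 fold change of 1.68. Without P2 replicate 1, 8 were higher and none lower. They summed to 262 to 306 TPM at P2 and 94.7 to 111 TPM at E16.5, against 468 to 561 TPM in Cited1+ libraries. Calb1, also on the distal tubule list, stood at 25.6 and 9.64 TPM at P2, against 0.376, 2.1 and 0.509 TPM at E16.5. Cdh1 stood at 10.6 and 6.32 TPM at P2, against 0.272, 0.849 and 0.391 TPM at E16.5. Unlike these, the bud receptor Ret stood at 0.349 and 0.253 TPM at P2, against 0.337, 0.505 and 0.398 TPM at E16.5, near 0 in both groups.

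Macrophage genes were higher in 13 and lower in none of 15 tested cases, out of 18, with a median log2 fold change of 2.29. They summed to 110.3 to 130.1 TPM at P2 and 11.2 to 42.7 TPM at E16.5, against 367 to 483 TPM in Six2- libraries. C1qb, a complement chain gene of macrophages, stood at 12.9 and 13.6 TPM at P2, against 0.119, 2.14 and 0.172 TPM at E16.5 (log2 fold change 3.16, SE 0.43). Stroma genes were higher in 14 and lower in 4 of 25 tested cases, out of 28, with a median log2 fold change of 0.95. With the length trend removed 7 were higher, and with no filter on low values 8 were. Transcripts of this list had a median length of 4912 bases, against 3386 for all tested genes. The higher ones numbered 5 without P2 replicate 1, 7 without P2 replicate 2 and 9 without E16.5 replicate 1, where 2 were lower. Foxd1, the regulator of stromal progenitors, was lower at 12.7 and 11.98 TPM at P2, against 119.7, 66.7 and 103 TPM at E16.5 (log2 fold change -2.83, SE 0.25) and split all libraries by table. The smooth muscle actin gene Acta2 was higher at 44.2 and 63.8 TPM at P2, against 13.9, 6.6 and 5.75 TPM at E16.5 (log2 fold change 2.57, SE 0.34). Markers of stroma thus moved both ways. Endothelial genes were higher in 5 and lower in 2 of 9 tested cases, out of 18, with a median log2 fold change of 1.11. Their sum went the other way, at 187 to 209.7 TPM at P2 against 274 to 284 TPM at E16.5. Much of that sum came from Ramp2, which Six2- cells held at 111, 85.4 and 87.4 TPM. Ramp2, a lower gene, stood at 100.8 and 92.1 TPM at P2, against 251.9, 231.8 and 247 TPM at E16.5. Cldn5 was among the higher genes, at 69.1 and 55.8 TPM at P2 against 5.46, 10.5 and 3.74 TPM at E16.5. The higher ones numbered 1 without P2 replicate 1 and 3 without E16.5 replicate 1, and 1 was lower whichever library was left out. Pecam1, a defining endothelial gene, stood at 2.06 and 0.501 TPM at P2, against 0.152, 0.807 and 0 TPM at E16.5. The part of these cell types in the other differences was not tested.

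**Figure D4:**
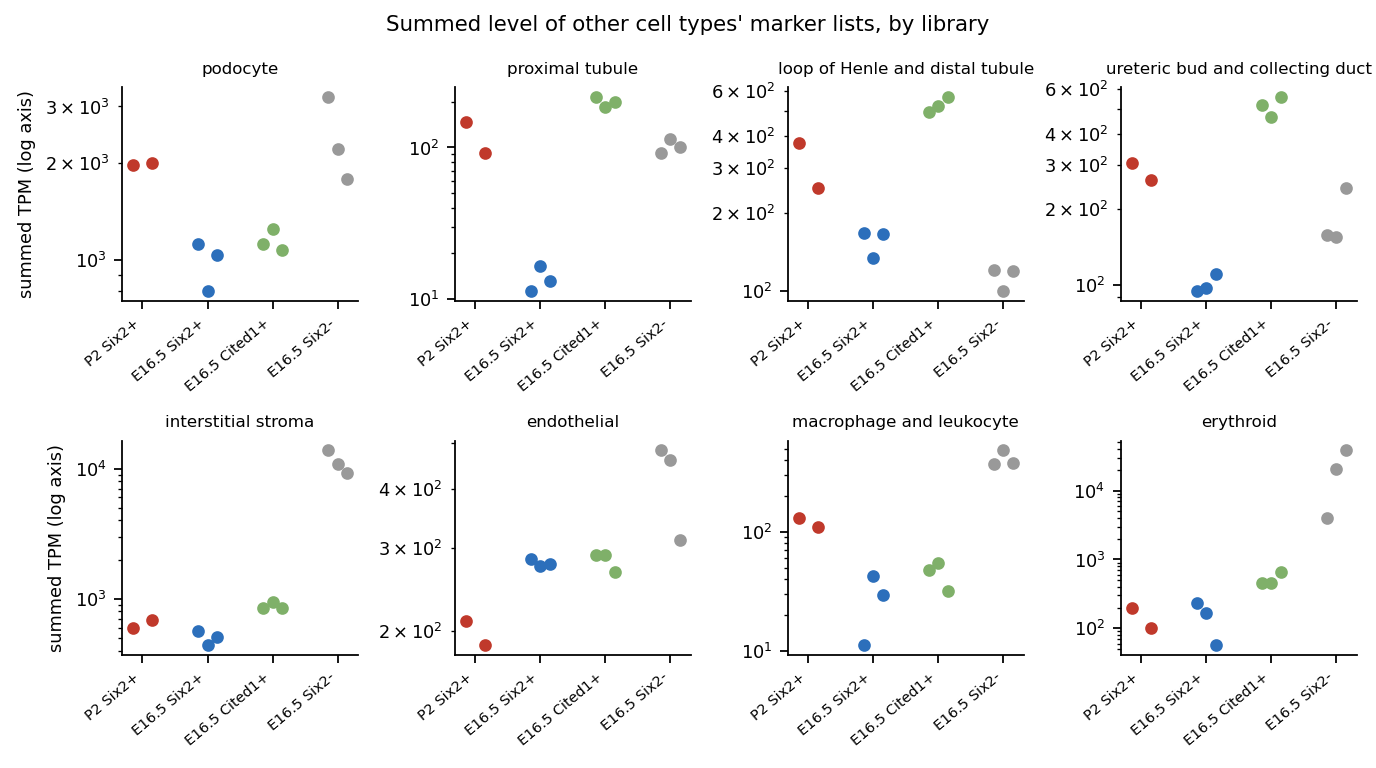
Summed TPM (log axis) of the marker lists of 8 other cell types, with a point for each library of P2 Six2+ (n = 2), E16.5 Six2+ (n = 3), E16.5 Cited1+ (n = 3) and E16.5 Six2- (n = 3) cells. Macrophage markers sum to 110.3 to 130.1 TPM at P2 against 11.2 to 42.7 TPM in E16.5 Six2+ libraries, and stroma markers to 600.9 to 692 against 443 to 564 TPM.

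Among the 10 largest rises that the naming rule admits, Emx2, Lhx1 and Podxl are given above, and others were Hist1h2ap, Pmp22, Bgn, Sdk2, Wipf3 and Nfia. Pmp22, a membrane protein gene of myelin and epithelial junctions at chr11:63128982-63159547, stood at 248 and 264 TPM at P2, against 8.71, 11.5 and 5.16 TPM at E16.5 (log2 fold change 4.82, SE 0.28, limma adjusted p = 6.4e-06). Bgn, a small matrix proteoglycan gene, stood at 133 and 146 TPM at P2, against 4.5, 5.08 and 4.75 TPM at E16.5 (log2 fold change 4.60, SE 0.21). Both lay above every E16.5 Six2+ library by a wide margin, and Six2- cells held 476, 359 and 276 TPM of Bgn. The cell adhesion gene Sdk2 stood at 91.2 and 98.6 TPM at P2, against 3.98, 2.86 and 3.12 TPM at E16.5 (log2 fold change 4.48, SE 0.23). Wipf3, a gene for an actin regulator, stood at 61.3 and 57.6 TPM at P2, against 2.04, 1.55 and 1.74 TPM at E16.5 (log2 fold change 4.45, SE 0.24). The transcription factor gene Nfia stood at 33.9 and 35.4 TPM at P2, against 0.835, 0.967 and 0.445 TPM at E16.5 (log2 fold change 4.36, SE 0.26). Hist1h2ap had the largest fold change of these, but it belongs to a family of near-identical histone genes that can share reads, so its level is uncertain, as is that of Hist1h3h among the falls. Cited1+ libraries, which share the P2 table, held 0.0027, 130 and 0.908 TPM of Hist1h2ap, so it varied widely among libraries of that group.

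Among the 10 largest falls, Ocm, a calcium-binding protein gene at chr5:144019807-144050640, was listed at 0 in both P2 libraries and stood at 55.4, 57.3 and 34.8 TPM at E16.5. Cited1+ cells, which share the P2 table, held 29.8, 30.2 and 33.98 TPM. Pgf, a growth factor gene related to Vegfa, stood at 0.962 and 0.992 TPM at P2, against 35.2, 38.3 and 38.96 TPM at E16.5 (log2 fold change -4.28, SE 0.23). The dynein subunit gene Dync1i1 stood at 0.433 and 0 TPM at P2, against 28.2, 28.7 and 30.9 TPM at E16.5 (log2 fold change -4.66, SE 0.26). Gli1, a target of hedgehog signalling, stood at 0.331 and 0.354 TPM at P2, against 13.5, 10.98 and 20.01 TPM at E16.5 (log2 fold change -3.52, SE 0.30). At P2 Gli1 was below all 9 E16.5 libraries, and Six2- cells held 92.5, 78.02 and 108 TPM. Tgoln2, of the Golgi network, stood at 0.261 and 0.272 TPM at P2, against 20.6, 5.11 and 22.6 TPM at E16.5 (log2 fold change -3.53, SE 0.51). Rmrp, a structural RNA, was listed at 0 in both P2 libraries and stood at 5.54, 16.9 and 30.2 TPM at E16.5. Rn45s, the ribosomal RNA precursor, stood at 0.0462 and 1.72 TPM at P2, against 8.39, 13.98 and 43.8 TPM at E16.5 (log2 fold change -3.45, SE 0.60), and its E16.5 libraries differed widely. Six2- libraries held 3.87, 10.4 and 126 TPM of Rmrp and 8.24, 17.05 and 89.8 TPM of Rn45s. Cited1+ libraries held 5.56, 2.68 and 4.52 TPM of Rmrp and 5.18, 2.19 and 12.4 TPM of Rn45s. In E16.5 Six2+ and Six2- cells replicate 3 held the most of both RNAs. How far these falls follow library preparation was not tested.

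Fold changes rose with transcript length. Among 12899 tested genes with a length, the median log2 fold change by quintile of length was -0.21 in the shortest, then 0.01, 0.15 and 0.28, and 0.58 in the longest. In the shortest quintile 15.6% of genes were higher and 28.2% lower, and in the longest 43.1% were higher and 3.2% lower. Against Cited1+ cells, whose values stand in the same table as P2, the medians ran from -0.1 to 0.06. With the trend removed from the values, 2879 genes were higher and 2786 lower. Of the 29 commitment genes tested 26 then were higher, and of the 27 glycolysis genes 15 were lower. The source of the trend was not tested.

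**Figure D5:**
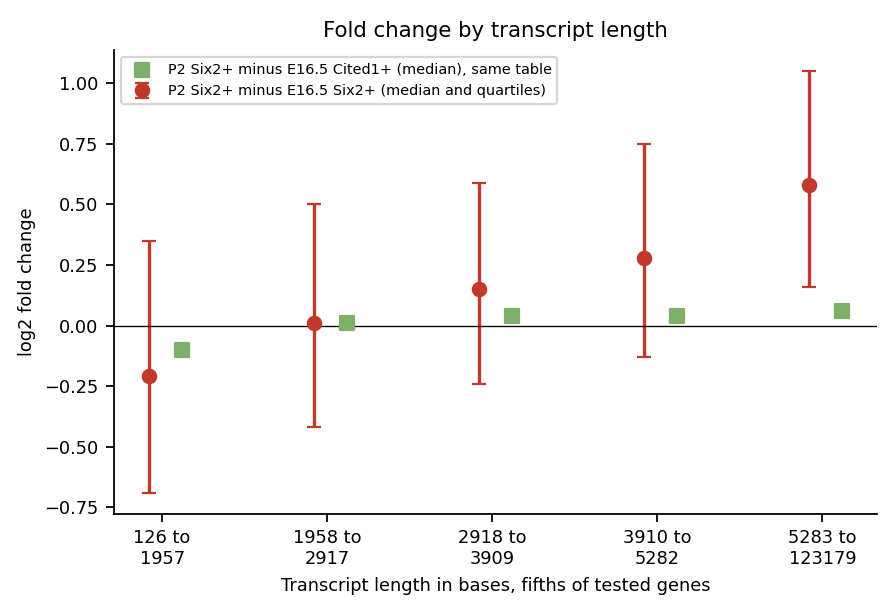
Median log2 fold change by quintile of transcript length in bases, for P2 Six2+ minus E16.5 Six2+ (circles, bars from the lower to the upper quartile) and for P2 Six2+ minus E16.5 Cited1+ (squares, median). The circles climb from -0.21 to 0.58, and the squares stay between -0.1 and 0.06.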

How the data were processed

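RNA from cells sorted by flow cytometry was prepared with a Qiagen RNeasy micro kit and made into stranded Kapa mRNA libraries, as the labels' protocols state. According to the submitters' processing notes the tools were bcl2fastq 2.17, TopHat2 and Partek, with the build mm10. The counting method and its strand setting are not given in the sources used here, so overlapping genes and near-identical copies are uncertain. The authors deposited values that they call TPM but that scale as RPKM, reads per length and depth, in 2 tables of 24454 rows, with Six2+ library sums of 321882.9 to 433447.3. The 27 rows with dates for symbols were left out, and 24427 genes remained. Low values of each library were set against those of P2 replicate 1, across tables too. Between 30.0% and 41.9% of such pairs stood at 1 step times a ratio of small whole numbers. Values were therefore taken as scaled library by library with the same lengths, and a test across tables was made. Exact read counts were not recovered, so no interval that needs them is given.

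Each library was rescaled to a total of 1000000, which gives TPM. Genes with a mean of at least 1 over the 5 libraries were fitted with limma 3.58.1 (R 4.3.3) on log2(TPM + 1), with a mean-variance trend and no covariate; p-values were adjusted by Benjamini-Hochberg across every gene fitted. Fold changes are P2 minus E16.5 and understate the change of low genes. The fit was tested on simulated data, and tables were handled in Python 3.11.15 with pandas 2.3.3 and numpy 2.4.6. Alternatives were other scalings, pseudocounts of 0.1 and 5, no filter or a mean of at least 5, all 11 libraries in the fit, the replicate block and each library left out, and, added after the data were seen, removal of the trend over transcript length (lowess, span 0.3).

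The 30 gene lists, the markers and the tests were chosen with earlier results of these data known, and lists share members. Genes were named by rule: Six2, Igf2bp3, Lhx1, Wnt4 and Aldoa; the 10 largest rises and falls among genes that passed, did not overlap, did not split by table and averaged at least 5 TPM in one of the groups, without gene models and ribosomal, haemoglobin and sex-linked genes; up to 4 passing members of each list; and any member of the cap mesenchyme, commitment, fetal growth, Wnt target and glycolysis lists. The others, Xist, Ddx3y, Six3, Notch2, Notch1, Hes6, Bmp4, Smad6, Dusp6, Spry1, Il17rd, Fgfr1, Igf2, Igfbp5, Igf1r, Mest, Grb10, Pdk1, Ak4, Vegfa, Hif1a, Tsc1, Mtor, Cox4i1, Ndufa9, Atp5a1, Top2a, Cdkn1c, Cdkn1b, Ezh2, Lama5, Frem1, Hnf4a, Slc12a1, Ret and Pecam1, were chosen after their values were seen. A few genes that the rule admits are not reported here. The lists of interferon, stress response, neural, erythroid and sex-linked genes are given in the closing section.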

Additional observations from a re-analysis of the deposited data

How the results depend on the processing

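The number of genes higher at P2 ranged from 1713 to 3759 when single libraries were left out, against 3424 with all 5, and the lowest value came without P2 replicate 1. The number lower ranged from 806 to 1847, against 1681, being 806 without P2 replicate 1 and 902 without P2 replicate 2. A lone P2 library is assumed there to vary like the E16.5 ones. More genes were lower with no rescaling (2973), with the median of ratios (3041) and with the length trend removed (2786), and the cause was not tested. Of the 3424 genes higher, 2759 were also higher with the median of ratios and 2598 with the length trend removed. The 1907 genes that split all libraries by table were 206 when a gap of at least 0.5 on the log2 scale was asked for.

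The labels number libraries alike at both stages but do not pair them, and only 2 numbers are shared. With the replicate block, 3925 genes were higher and 1690 lower. Deviations of libraries from their group means correlated between -0.02 and 0.02, which gave no sign of pairing by number. The deviations of the 2 P2 libraries mirror each other, so few of these values are independent. Whether libraries shared a preparation was not tested. Of 122 genes named by rule, 102 kept their direction and their side of the threshold in each of the 15 alternatives that tested them. In the alternatives that keep every library 108 did so, and none reversed. Not every gene was tested in each, since 105 passed the filter at a mean of at least 5. Most of these genes were named because they passed in the same data. There were 2 libraries at P2, which limits the precision.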

Other observations

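Genes of the immediate early and dissociation stress response were spread widely among the E16.5 libraries. Fos stood at 728 and 1177 TPM at P2, against 148, 357 and 899 TPM at E16.5 (log2 fold change 1.35, SE 0.56). The heat shock gene Hspa1a stood at 21.04 and 28.9 TPM at P2, against 8.93, 54.2 and 293 TPM at E16.5 (log2 fold change -1.08, SE 1.02). For both genes E16.5 replicate 3 was the highest of its group, and neither passed. Nr4a1, an immediate early nuclear receptor gene, was higher at 309 and 319 TPM at P2, against 45, 43.6 and 141 TPM at E16.5 (log2 fold change 2.25, SE 0.42). Of 27 genes tested, out of 28, 4 were higher and 3 lower at P2, beside 26.4% and 13% of all genes. The median log2 fold change was 0.27, and with the median of ratios 2 were higher and 3 lower. The higher ones numbered 10 without E16.5 replicate 3, 1 without P2 replicate 1, 1 without P2 replicate 2, 1 without E16.5 replicate 1 and 2 without E16.5 replicate 2. None was lower without P2 replicate 1 or without P2 replicate 2, and 5 were lower without E16.5 replicate 1.

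Interferon and antigen presentation genes were higher in 5 and lower in 1 of 16 tested cases, out of 24, with a median log2 fold change of 0.36, and with 2 higher and none lower without P2 replicate 1, 2 lower without P2 replicate 2, and none lower without E16.5 replicate 1 or 2. Over all genes 26.4% were higher and 13% lower. B2m, the light chain gene of class I molecules, stood at 162 and 171 TPM at P2, against 47.8, 53.5 and 41.7 TPM at E16.5 (log2 fold change 1.79, SE 0.17). Ifitm3 stood at 19.4 and 24.6 TPM at P2, against 3.72, 6.08 and 2.39 TPM at E16.5 (log2 fold change 2.24, SE 0.33). Neural and glial genes were higher in 4 of 7 tested cases, out of 18, with a median log2 fold change of 1.11, and these were Pmp22, Npy, Map2 and Elavl4, while the neural crest gene Sox10 was listed at 0 in both P2 libraries. Elavl4 split all libraries by table and lost its call without P2 replicate 1 (limma adjusted p = 0.095) and without P2 replicate 2 (limma adjusted p = 0.057). Erythroid genes were lower in 2 of 7 tested cases, out of 15, with a median log2 fold change of -0.30, which were Hbb-bt and Hbb-b2 with identical values in every library, and in none without P2 replicate 1 or without P2 replicate 2. No sex-linked gene of 5 tested passed by limma, at an unadjusted p of 0.05 either; leaving out single libraries gave up to 2 higher and up to 4 lower.

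The P2 libraries differed from each other in genes of late tubule and juxtaglomerular cells. Ren1, the renin gene, stood at 13.2 and 0.126 TPM at P2, against 0, 0.126 and 0 TPM at E16.5. Umod, made by the thick ascending limb, stood at 19.1 and 1.48 TPM at P2, against 0.986, 1.02 and 0.588 TPM at E16.5. The distal salt carrier gene Slc12a3 stood at 18.1 and 1.35 TPM at P2, against 0, 0.0724 and 0 TPM at E16.5. In each case replicate 1 was the higher P2 library, and Umod and Slc12a3 split all libraries by table. Fos, Hspa1a, Sox10, Ren1 and Umod were chosen after their values were seen.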
